A study of Sus scrofa with 60 samples.

Results

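The RNA splicing factors and RNA helicases of the pig liver were followed over 4 ontogenetic stages as messenger RNA (mRNA) on the Affymetrix porcine array. A probe set, the group of short oligonucleotides that reads 1 transcript, was included when its annotation held a single gene symbol starting with DDX, DHX, HNRNP, HNRP, SF3, SFRS, SRSF, SNRP, PRPF or U2AF. This rule used names and no measured value, and gave 122 probe sets of 81 genes, out of 23999 probe sets that were not controls and 6765 genes with a probe set of their own. By family there were 27 probe sets of 11 SR protein genes, 26 of 17 hnRNP genes, 13 of 10 snRNP genes, 10 of 9 SF3 and U2AF genes, 12 of 9 PRPF genes, 28 of 21 DDX genes and 6 of 4 DHX genes. The samples were livers of German Landrace pigs born to, or carried by, gilts on the adequate protein (AP) gestation diet. They came from 15 fetuses of 94 days post conceptionem (dpc), 15 newborns of 1 day post natum (dpn), 14 pigs of 28 dpn and 16 pigs of 188 dpn, and every animal had an array of its own. By the study's methods the fetuses were obtained by Caesarean section in an experiment of their own, newborns were killed within days of birth, and the 28 and 188 dpn pigs had been cross-fostered and had fasted overnight. The experiment therefore cannot be told apart from the stage between 94 dpc and 1 dpn. Pigs of 1, 28 and 188 dpn came from the same experiment. Between 1 and 28 dpn the overnight fast, the cross-fostering and the castration of males cannot be told apart from the stage. Nor can the choice by weight and the way of killing, by injection at 1 dpn and by electronarcosis with exsanguination later. Pigs of 28 and 188 dpn had both fasted, but the change to standard diets after weaning cannot be told apart from the stage between them. The animals of a stage came as sib pairs, light and heavy sibs at 94 dpc and 1 dpn. Piglets of a litter were also distributed over 1, 28 and 188 dpn, so animals of different postnatal stages can be littermates. The labels give no litter, sex or weight, so each animal was taken as independent.

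Splicing removes introns from precursor mRNA in the spliceosome, which is built on each intron from small nuclear ribonucleoproteins (snRNPs) and many further proteins. SR proteins mostly bind exons and help the machinery find splice sites, whereas hnRNP proteins coat the transcript and often oppose them. The SF3 and U2AF factors define the branch point and the end of the intron, PRPF factors take part in assembly and activation, and the DDX and DHX enzymes use ATP to rearrange RNA in splicing, ribosome production, export, translation and decay. In the liver such factors shape the shift between fetal and adult transcript isoforms.

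Levels are log2(intensity + 16), means carry the SD between animals, and changes are later minus earlier stage on the log2 scale with their SE. Intensities of a stage are given as those of the lowest and the highest animal with the median. Period I is 1 dpn against 94 dpc, period II is 28 dpn against 1 dpn and period III is 188 dpn against 28 dpn. A change was called at an adjusted p below 0.05 (limma, Benjamini-Hochberg over all probe sets tested). The array scaling held a trimmed mean and let the array median lie at 169, 148, 116 and 111 over the 4 stages, so values after centring the arrays on their medians are given beside many of the results. The actin control, read near its 3' and its 5' end, gave a mean log2 ratio of 3' over 5' signal of 2.29 in fetuses, 1.76 in newborns, 3.54 at 28 dpn and 4.01 at 188 dpn. The 7 hepatocyte markers checked, among them albumin, were far above background at every stage, with a median summed intensity of at least 279566, and of them 1 rose and 1 fell in period I, 6 fell in period II and 6 rose in period III. The summed intensity of 7 of 12 listed erythroid markers on the array had medians of 26431, 2893, 4643 and 4012 over the stages, with ranges of 10299 to 45472, 1425 to 5166, 1531 to 8166 and 2207 to 8664, and 7 of the 7 fell in period I. The sum of 6 of 8 neutrophil markers had medians of 22200.3, 3266, 1163 and 936 over the stages, with ranges of 11284 to 33855, 1427 to 14268, 507 to 1970 and 338 to 1658, and 6 of 6 fell in period I and 5 of 5 tested in period II. The sum of 6 of 8 macrophage markers had medians of 13722, 20991, 42867 and 31547, with 4 of 6 rising in period I, 3 rising in period II and 5 falling in period III. The sum of 11 of 15 proliferation markers had medians of 9053, 8005, 3772 and 1142, and ranges of 5889.8 to 14999.5 in fetuses, 2573 to 15009.8 in newborns, 1576 to 8144 in pigs of 28 dpn and 902 to 1457 in those of 188 dpn. Of its 10 tested members 4 fell in period I, 8 in period II and 10 in period III, and CCNA2, CCNB2 and TOP2A lay under the background level at 188 dpn. In whole liver fewer cells of a type and less RNA per cell cannot be told apart, and the part of these markers in the changes described here was not tested.

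Over the 4 stages the set as a whole declined with age. The median level of the member probe sets on an array averaged 10.00 in fetuses, 9.68 in newborns, 9.15 at 28 dpn and 8.93 at 188 dpn, and relative to the array median it averaged 2.47, 2.32, 2.10 and 1.94. The lowest fetal array had a member median of 9.83 and the highest array of 188 dpn had one of 9.21, so those stages did not overlap. This is shared with the whole array, whose median intensity ran from 159.7 to 180.9 at 94 dpc and from 101.2 to 119.1 at 188 dpn. No range was taken for the member median relative to the array median. Of the 107 member probe sets that passed the filter on low values, 103 differed among the stages by limma's F test, against 93.1% of all 13867 tested. For 60 of them the highest stage mean was at least 2-fold the lowest, where the share over all probe sets was 49.4%, and for 16 at least 4-fold, against 11.4% over all. The median of the level at 94 dpc minus that at 188 dpn was 1.06 over the members and 0.35 over all probe sets tested, and after median centring it was 0.52 and -0.20.

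The fetal liver held the highest stage mean for most of the strongly varying members, also after median centring. Among the 60 with a span of at least 2-fold, 48 were highest in fetuses, 10 in newborns, 0 at 28 dpn and 2 at 188 dpn, whereas over all such probe sets the shares were 49.8%, 20.3%, 9.8% and 20.1%. The lowest mean was that of fetuses for 1, of newborns for 1, of 28 dpn for 16 and of 188 dpn for 42, with 22.1%, 14.7%, 17.9% and 45.3% over all. With arrays centred on their medians a 2-fold span was kept by 40 of the 107 members, or 37.4%, against 47% of all probe sets. Of these 40 members, 22 (55%) were highest at 94 dpc and 21 (52.5%) lowest at 188 dpn, against 23.8% and 23.1% of all such probe sets. The 15 member probe sets left out by the filter included those of DDX4, DDX25, DDX60, SRSF12 and a second probe set of DDX58, and between 5 and 11 member probe sets per stage lay at or below the highest mean of the 17 Tag controls taken as background (5.86, 6.29, 5.73 and 5.84 over the stages). The rule also left out 3 probe sets that list DDX3X with a second gene, and U2AF1, PRPF8, DDX5 and DDX17 are not analysed here.

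**Figure D1:**
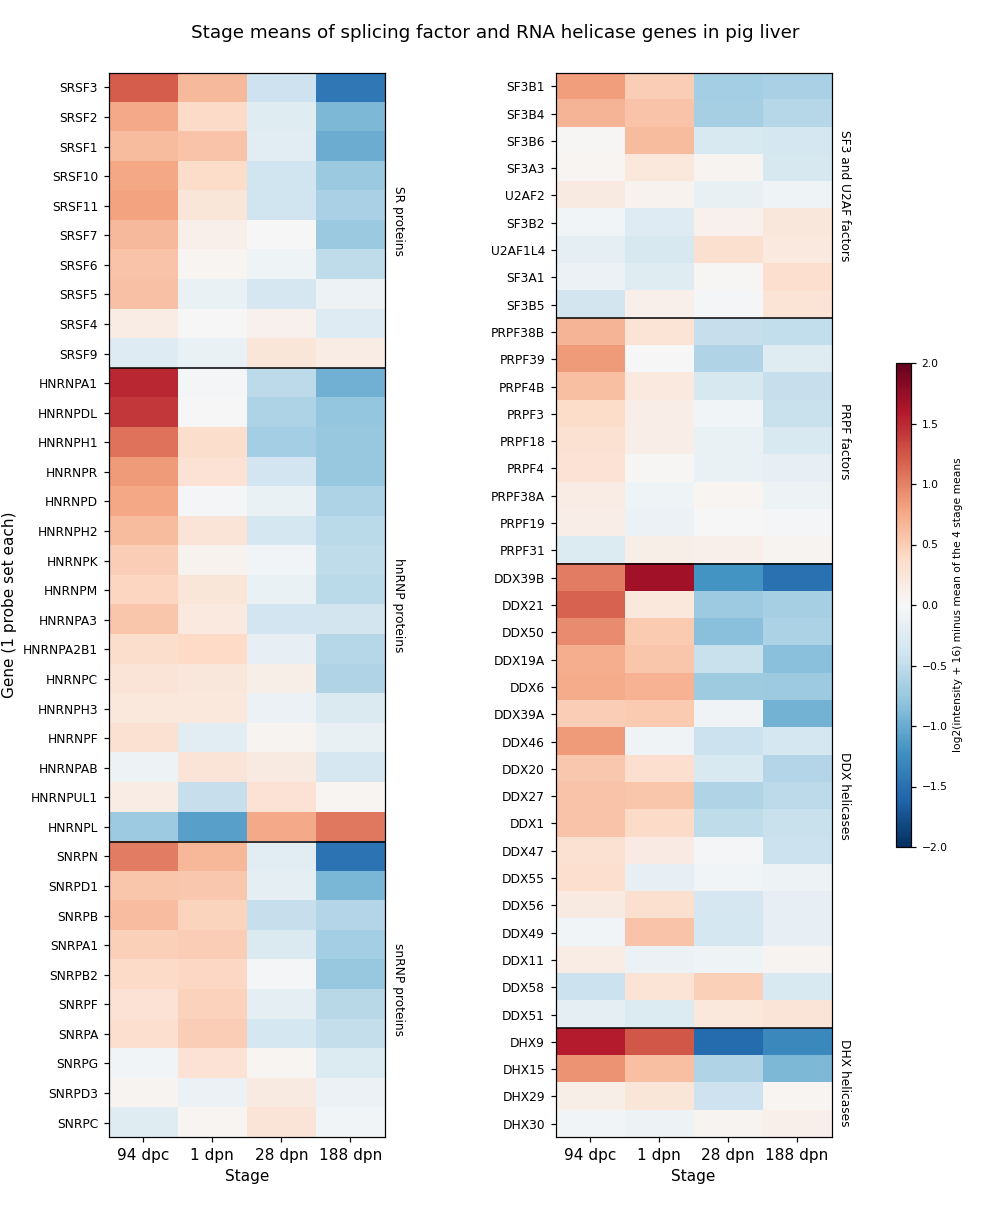
Stage means of 75 member genes that passed the filter (1 probe set each, rows, grouped by family), coloured by log2(intensity + 16) minus the mean of the gene's 4 stage means, with stages from 94 dpc to 188 dpn as columns. Under the deposited scaling most rows run from red in the fetus to blue at 188 dpn, among them SRSF3, HNRNPA1 and SNRPN, while HNRNPL runs the other way.

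The 3 periods contributed unequally. In period I 16 of 107 member probe sets rose, or 15%, against 23.9% of all 12797 tested, and 46 fell, or 43%, against 41% of all. The median change was -0.20 for the members and -0.15 over all probe sets. At least 2-fold rises numbered 0 among the members (5.31% of all) and at least 2-fold falls 6 (8.13% of all). The newborn range lay wholly above the fetal range for 1 member (4.45% of all) and wholly below it for 7 (5.52% of all). With arrays centred on their medians 19 members rose and 33 fell, a share of rises among the called of 36.5% in place of 25.8%, and the median change of all probe sets moved to 0.02. In that setting 17.8% of the members rose and 30.8% fell, against 32.6% and 29.2% of all probe sets, so the share of falls was close to that of all.

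Period II, from the newborn to weaning age, had the highest number of called falls except with the actin covariate, which left 35 in period I. In it 11 of 105 members rose, or 10.5%, against 28.5% of all 13002 tested, while 64 fell, or 61%, against 39% of all. The median change was -0.58 for the members and -0.10 over all probe sets. A fall of at least 2-fold was found for 19 members (12% of all) and a rise of that size for 1 (6.35% of all). The ranges of the animals did not overlap for 20 members that were lower at 28 dpn (6.82% of all) and for 1 that was higher (4.58% of all). After median centring 22 members rose and 48 fell, so that rises made up 31.4% of the called in place of 14.7%, and the shares that fell were 45.7% of the members and 23.6% of all probe sets. The shares that rose were then 21% of the members and 45.7% of all. The actin ratio differed strongly between these stages, and with it as a covariate 3 members rose and 27 fell, or 25.7% of the members against 13.1% of all probe sets. The ratio ran from 1.14 to 2.23 at 1 dpn and from 2.85 to 4.41 at 28 dpn, without overlap. This fit can therefore hardly separate RNA length from stage, and a call lost in it need not mean a smaller change. Most lost calls of named genes had a smaller change in this fit, such as DDX21 (from -0.94 to -0.72) and DDX51 (from 0.48 to 0.02). Others had a larger one, such as DDX39A (from -0.58 to -0.74). The median change with the covariate was -0.44 for the members and -0.07 over all probe sets. Whether RNA length had a part in the falls was not tested.

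In period III 7 of 96 members rose, or 7.29%, against 15.5% of all 12593 tested, and 37 fell, or 38.5%, against 24% of all. The median change was -0.16 for the members and -0.04 over all probe sets. Falls of at least 2-fold occurred in 2 members, SRSF3 and SNRPN (2.39% of all), and rises of that size in 0 (1.23% of all). The range at 188 dpn lay below that at 28 dpn for 6 members (0.754% of all) and above it for 0 (0.484% of all). With arrays centred on their medians 9 members rose and 32 fell, and rises made up 22% of the called in place of 15.9%. The shares that rose and fell were then 9.38% and 33.3% of the members, against 20.1% and 19.2% of all probe sets.

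**Figure D2:**
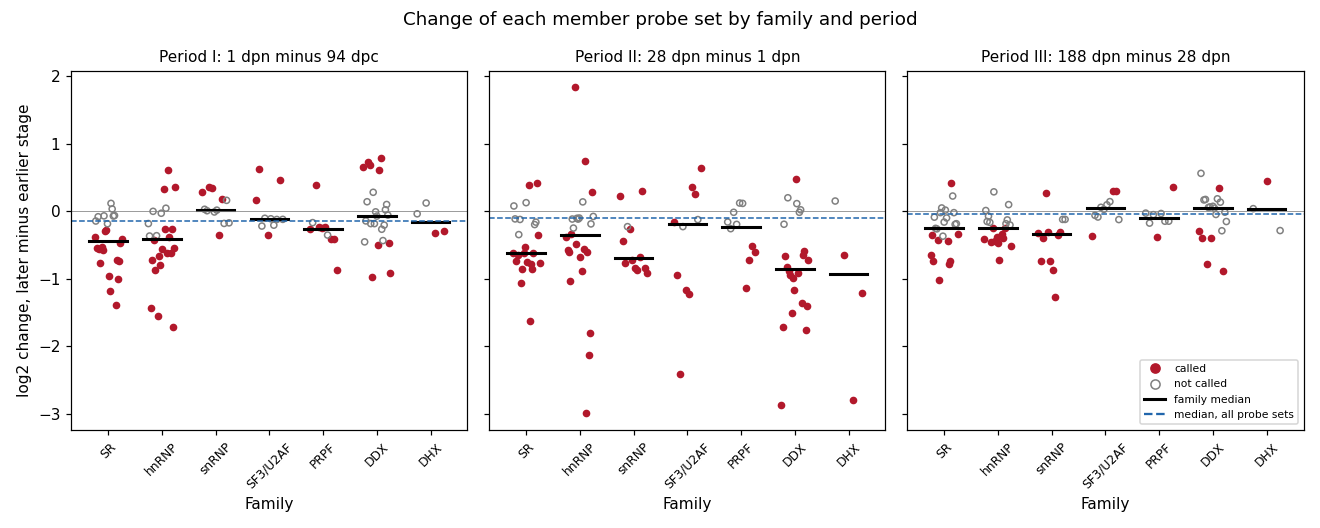
Log2 change, later minus earlier stage, of each member probe set that passed the filter (points, filled where called) by family in the 3 periods, with the family median as a black bar and the median of all probe sets as a dashed line. In period II the DDX median lies at -0.86 and the SR median at -0.62, below the dashed line at -0.10.

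In every period more SR protein probe sets fell than rose, also after median centring. In period I 0 of 24 probe sets rose and 16 fell with a median change of -0.44, in period II 2 of 23 rose and 14 fell (median change -0.62), and in period III 1 of 23 rose and 9 fell (median change -0.25). As a share, 66.7%, 60.9% and 39.1% of them fell in the 3 periods, against 41%, 39% and 24% of all probe sets tested. SRSF3, a small SR protein that also acts in mRNA export, had intensities of 4555 to 7336 at 94 dpc (median 6222), 2847 to 5437 at 1 dpn (median 4369.9), 1427 to 2412 at 28 dpn (median 2033), and 551 to 1315 at 188 dpn (median 1093). Its ranges did not overlap between 28 and 1 dpn or between 188 and 28 dpn, and the stage means spanned 6.25-fold. The changes were -0.57 ± 0.10 in period I (adjusted p = 1.28e-05), -1.06 ± 0.11 in period II (adjusted p = 3.64e-10) and -1.02 ± 0.12 in period III (adjusted p = 4.02e-08). SRSF2, which binds exonic enhancers and the machinery of transcription, read 5154 to 8531 at 94 dpc (median 6409), 3709 to 6075 at 1 dpn (median 4772), 2871 to 3632 at 28 dpn (median 3148), and 1096 to 2623 at 188 dpn (median 2139). It fell by 0.38, 0.62 and 0.65 in the 3 periods (adjusted p = 7.96e-05, 2.55e-09 and 6.7e-06), again without overlap in periods II and III.

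SRSF1, the founding member of the family, was not called at birth and fell afterwards. Its intensities were 2161 to 3732 at 94 dpc (median 2740.3), 1742 to 3532 at 1 dpn (median 2678), 1081 to 1796 at 28 dpn (median 1535), and 489.7 to 1421 at 188 dpn (median 793). The period I difference was -0.07 ± 0.10 (adjusted p = 0.544), and both later ones were -0.78 ± 0.10 and -0.78 ± 0.11 (adjusted p = 2.4e-08 and 1.57e-06). The other SRSF1 probe sets gave -1.63 and -0.85 in period II and -0.44 and -0.74 in period III, all called. SRSF7, close to SRSF3 in its RNA-binding domain, fell at birth by 0.54 (adjusted p = 1.19e-05) and again in period III by 0.74 (adjusted p = 1.32e-06), with a period II difference of -0.11 ± 0.12 (adjusted p = 0.398). SRSF5 had intensities of 1412 to 2652 at 94 dpc (median 1854), 808 to 1608 at 1 dpn (median 1044), 542 to 1529 at 28 dpn (median 1015), and 891 to 1449 at 188 dpn (median 1237). It fell by 0.73 in period I (adjusted p = 3.02e-07). Its period III difference of 0.23 ± 0.11 (adjusted p = 0.0937) became a called rise of 0.29 after quantile normalization and after median centring (adjusted p = 0.0292 and 0.032). SRSF9 differed from these, with 2756 to 3575 at 94 dpc (median 3236), 2584 to 4079 at 1 dpn (median 3582), 3908 to 5473 at 28 dpn (median 4457), and 3557 to 4778 at 188 dpn (median 4286). It rose by 0.39 in period II (adjusted p = 1.96e-05), a call that was lost with the actin covariate (adjusted p = 0.0809). The dimmer SRSF9 probe set had stage means of 7.68, 7.50, 7.63 and 7.47 and was not called by the F test (adjusted p = 0.236).

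**Figure D3:**
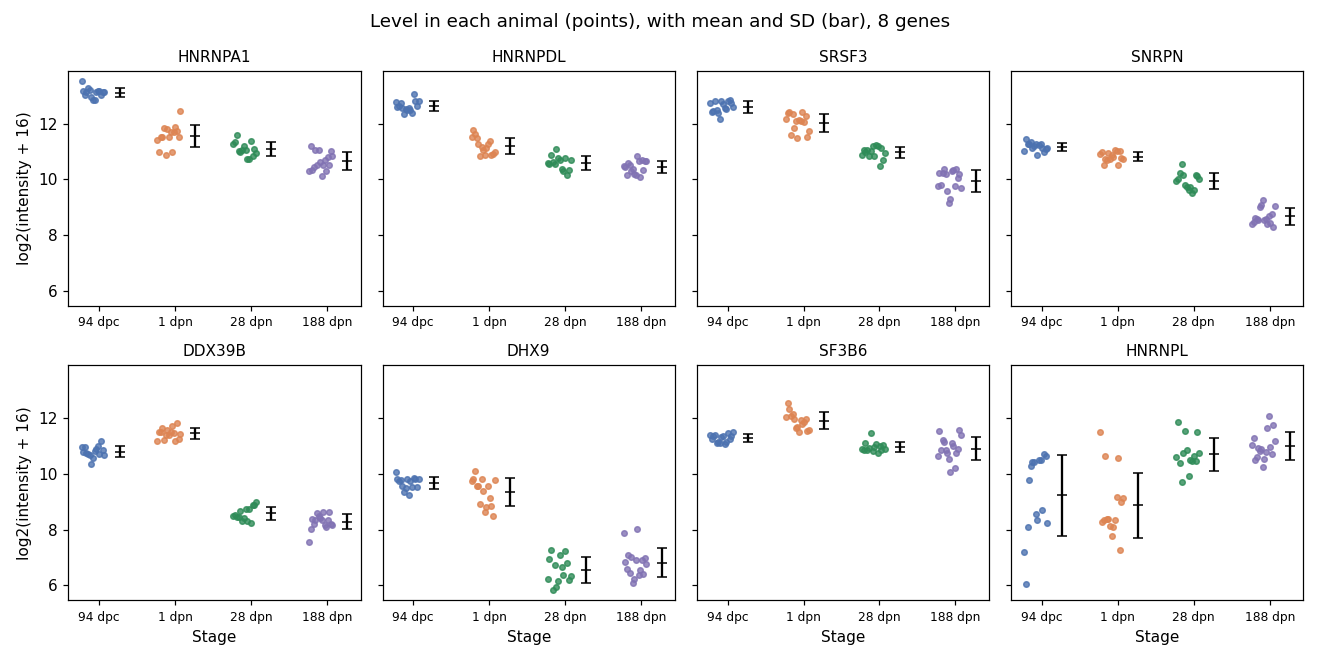
Level of 8 named genes as log2(intensity + 16) in each animal (points, coloured by stage, from 94 dpc on the left to 188 dpn on the right), with the stage mean and SD as a bar. HNRNPA1 and HNRNPDL drop between 94 dpc and 1 dpn, DDX39B and DHX9 between 1 and 28 dpn, SRSF3 and SNRPN in both later periods, SF3B6 is highest at 1 dpn, and HNRNPL is widely scattered before 28 dpn.

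The hnRNP proteins held the largest falls at birth. Of 24 probe sets tested in period I, 3 rose and 15 fell with a median change of -0.40. In period II 3 of 24 rose and 13 fell (median change -0.35), which was -0.04 with 7 rises and 7 falls after median centring. In period III 0 of 21 rose and 12 fell (median change -0.24). The falls made up 62.5%, 54.2% and 57.1% over the 3 periods, with 41%, 39% and 24% over all probe sets. HNRNPA1, an abundant shuttling protein that opposes SRSF1 in the choice of splice sites, had intensities of 7325 to 11712 at 94 dpc (median 8976), 1886 to 5559.5 at 1 dpn (median 2957), 1681 to 3050.2 at 28 dpn (median 2120.0), and 1097 to 2358 at 188 dpn (median 1524). All newborns lay below all fetuses. The period I change of -1.55 ± 0.11 was a 2.93-fold fall (adjusted p = 1.65e-13). Further falls of 0.48 in period II (adjusted p = 0.00111) and 0.44 in period III (adjusted p = 0.00149) followed, of which that in period II was lost under median centring (adjusted p = 0.227) and with the actin covariate (adjusted p = 0.498).

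HNRNPDL and HNRNPD, paralogs that bind AU-rich elements, both fell at birth. HNRNPDL read 5193 to 8633 at 94 dpc (median 6248), 1836 to 3462 at 1 dpn (median 2260.1), 1128 to 2160.0 at 28 dpn (median 1544), and 1086 to 1809.6 at 188 dpn (median 1392). It fell 2.69-fold in period I (-1.43 ± 0.09, adjusted p = 1.94e-14) without overlap, and its second probe set fell there by 1.71 (adjusted p = 7.91e-11), also without overlap. HNRNPD, known as AUF1 for its part in mRNA decay, had intensities of 5151 to 7063 at 94 dpc (median 5968), 2623 to 4456 at 1 dpn (median 3517), 2428 to 3707 at 28 dpn (median 3242), and 1594 to 2712 at 188 dpn (median 2357). Its period I change was -0.80 ± 0.08 (adjusted p = 1.78e-10) with no overlap, and it fell by 0.48 in period III (adjusted p = 5.7e-06). In period II it differed by -0.11 ± 0.08 (adjusted p = 0.226). After median centring it rose by 0.20 (adjusted p = 0.0327), whereas after quantile normalization it fell by 0.22 (adjusted p = 0.0257).

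Other hnRNP genes divided over the periods. HNRNPH1, which binds G-rich sequences, fell by 0.73 in period I (adjusted p = 1.2e-05) and by 1.03 in period II (adjusted p = 4.99e-07, 0.086 with the actin covariate). HNRNPF, of the same subfamily, fell by 0.54 in period I (adjusted p = 3.65e-08) and rose by 0.29 in period II (adjusted p = 0.00191), the rise being lost under quantile normalization (adjusted p = 0.225) and with the actin covariate (adjusted p = 0.115). HNRNPK, a poly(C)-binding protein, fell by 0.43 in period I and by 0.45 in period III (adjusted p = 6.66e-07 and 1.43e-05). Its period II difference of -0.11 ± 0.07 (adjusted p = 0.123) turned into a called rise of 0.20 after median centring and a called fall of 0.32 after quantile normalization. HNRNPC, which binds runs of uridine and measures transcript length, had intensities of 3439.9 to 4997 at 94 dpc (median 3942), 2658 to 5655 at 1 dpn (median 3902), 2837 to 4469 at 28 dpn (median 3715), and 1810.2 to 2810.4 at 188 dpn (median 2227). It was called in period III alone, with a change of -0.72 ± 0.08 (adjusted p = 1.82e-08), and the ranges did not overlap. HNRNPAB rose by 0.35 in period I (adjusted p = 0.00206, 0.0557 after quantile normalization) and fell by 0.52 in period III (adjusted p = 4.25e-06).

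HNRNPL, which binds CA repeats and regulates alternative exons, was the 1 member among those tested with a rise of at least 2-fold in any period. Its intensities were 50.2 to 1673 at 94 dpc (median 866), 139 to 2923 at 1 dpn (median 315), 833 to 3737 at 28 dpn (median 1559), and 1208 to 4286 at 188 dpn (median 1909). The change in period II was 1.84 ± 0.33, or 3.58-fold (adjusted p = 1.25e-05), while the ranges of 28 and 1 dpn overlapped. Its SD between animals was 1.46 in fetuses, the highest of the tested members at that stage, 1.18 in newborns, 0.59 at 28 dpn and 0.49 at 188 dpn. At 1 dpn 12 newborns lay at a log2 level of 9.19 or less and 3 at 10.57 or more. The median SD over the member probe sets was 0.22 in fetuses, 0.34 in newborns, 0.30 at 28 dpn and 0.33 at 188 dpn, against 0.28, 0.39, 0.32 and 0.34 over all probe sets tested.

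The snRNP proteins showed few falls at birth and many later. In period I 4 of 12 probe sets rose and 1 fell with a median change of 0.02, in period II 2 rose and 9 fell (median change -0.69), and in period III 1 rose and 9 fell (median change -0.33). That is 8.33%, 75% and 75% with a fall, set against 41%, 39% and 24% of all probe sets. SNRPN encodes a form of the Sm ring protein SmB that is imprinted in human and mouse. Its intensities were 1867 to 2806 at 94 dpc (median 2345), 1448 to 2093 at 1 dpn (median 1795), 724 to 1478 at 28 dpn (median 985), and 302 to 606 at 188 dpn (median 370.2), so that the animals of 188 dpn lay below all others. The changes were -0.35 ± 0.07, -0.88 ± 0.09 and -1.27 ± 0.11 in the 3 periods (adjusted p = 4.07e-05, 1.43e-09 and 1.42e-10), and the stage means spanned 5.67-fold. Its second probe set gave 0.02 in period I (adjusted p = 0.869), -0.83 in period II (adjusted p = 3.69e-09) and -0.88 in period III (adjusted p = 4.17e-08).

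The common Sm protein SNRPB and the core protein SNRPD1 were not called at birth and fell later. SNRPB had intensities of 1546 to 2908 at 94 dpc (median 2108), 1348 to 2293 at 1 dpn (median 2027), 569.6 to 1162 at 28 dpn (median 1047), and 646 to 1201 at 188 dpn (median 925). It fell by 0.91 in period II without overlap (adjusted p = 2.58e-09), whereas the period III difference was -0.12 ± 0.10 (adjusted p = 0.337). The period I difference of SNRPB, -0.17, became a called fall of 0.22 after quantile normalization (adjusted p = 0.0334). SNRPD1 fell by 0.72 in period II without overlap and by 0.74 in period III (adjusted p = 1.14e-07 and 8.52e-08). SNRPA, which binds the RNA of the U1 snRNP, had intensities of 1009.7 to 1390.3 at 94 dpc (median 1227), 1084 to 1855 at 1 dpn (median 1380.1), 602 to 892 at 28 dpn (median 762), and 511 to 868 at 188 dpn (median 693). It fell by 0.85 in period II with no overlap (adjusted p = 6.61e-10), and its period I difference of 0.16 ± 0.08 (adjusted p = 0.0673) became a called rise of 0.33 after median centring (adjusted p = 0.00098). SNRPB2, the related protein of the U2 snRNP, fell by 0.44 in period II and by 0.73 in period III (adjusted p = 0.000964 and 0.000115), the first being lost after median centring (adjusted p = 0.308). SNRPD3 had one of the 5 smallest spans of the set, 1.24-fold, with a rise of 0.31 in period II and a fall of 0.31 in period III (adjusted p = 0.00314 and 0.00132). The rise was lost under quantile normalization (adjusted p = 0.08) and with the actin covariate (0.258).

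In period II some SF3 and U2AF probe sets fell and some rose. In period I 3 of 10 probe sets rose and 1 fell, in period II 3 rose and 5 fell, and in period III 2 rose and 1 fell, so that 10%, 50% and 10% fell where all probe sets gave 41%, 39% and 24%. The shares that rose were 30%, 30% and 20%, near the 23.9%, 28.5% and 15.5% of all. Their median changes of -0.11 and -0.19 in periods I and II were 0.06 and 0.12 after median centring, so the family as a whole had no settled direction there. SF3B1, the large scaffold of the branch-point complex, had intensities of 2105 to 3507 at 94 dpc (median 2864), 1328 to 3659 at 1 dpn (median 2207), 525 to 1589.7 at 28 dpn (median 969), and 603 to 1539.8 at 188 dpn (median 1027). It fell by 1.16 in period II (adjusted p = 3.48e-07, 0.0907 with the actin covariate), and its second probe set fell by 2.41 without overlap (adjusted p = 4.05e-16). SF3B4, which contacts RNA upstream of the branch point, had 615 to 847 at 94 dpc (median 675), 469.8 to 869.6 at 1 dpn (median 619.6), 215 to 378 at 28 dpn (median 247), and 194 to 412 at 188 dpn (median 288). It fell 2.35-fold in period II (-1.23 ± 0.10, adjusted p = 4.61e-12) with no overlap, and its period I difference was -0.11 ± 0.09 (adjusted p = 0.262).

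SF3B6, the small subunit that touches the branch-point adenosine, peaked in the newborn. Its intensities were 2125 to 2879 at 94 dpc (median 2583), 2883 to 6033 at 1 dpn (median 3909), 1729.7 to 2848 at 28 dpn (median 1902), and 1063 to 3058 at 188 dpn (median 1868). All newborns lay above all fetuses and above all pigs of 28 dpn, with a rise of 0.62 in period I (adjusted p = 4.21e-07) and a fall of 0.94 in period II (adjusted p = 8.35e-10). SF3B5 rose by 0.47 in period I (adjusted p = 1.06e-05) and by 0.30 in period III (adjusted p = 0.00841, 0.0693 with the actin covariate). SF3A1, a subunit of the mature U2 snRNP, had intensities of 775 to 1228 at 94 dpc (median 1014), 701 to 1332 at 1 dpn (median 868), 801 to 1524 at 28 dpn (median 1093), and 866 to 1648 at 188 dpn (median 1423). It rose by 0.26 in period II and by 0.31 in period III (adjusted p = 0.0241 and 0.00794). SF3A3 differed by 0.17 ± 0.07 in period I and -0.16 ± 0.07 in period II (adjusted p = 0.0273 and 0.0482), and neither call was stable. The first was lost under quantile normalization (adjusted p = 0.0941) and without the filter (0.0603). The second turned to 0.16 after median centring (adjusted p = 0.0938) and was lost without the filter (0.0926), without the lowest-correlation array of each stage (0.0842) and with the actin covariate (0.74). SF3A3 then fell by 0.37 in period III (adjusted p = 0.000244). SF3B2 rose by 0.35 in period II (adjusted p = 0.0116) and U2AF1L4, a paralog of the small U2AF subunit, by 0.64 (adjusted p = 1.82e-05), both lost with the actin covariate (adjusted p = 0.347 and 0.162). U2AF2, the large subunit that reads the polypyrimidine tract, differed by -0.10 ± 0.17, -0.23 ± 0.16 and 0.06 ± 0.13 in the 3 periods, and none of these was called (adjusted p = 0.612, 0.211 and 0.742).

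The PRPF factors had more falls at birth than later under the deposited scaling, and after median centring 2 falls in each of periods I and II. In period I 1 of 10 rose and 7 fell (median change -0.26, with 1 rise and 2 falls after median centring), in period II 0 of 10 rose and 4 fell (median change -0.22, and 0.09 after median centring), and in period III 1 of 8 rose and 1 fell. The shares with a fall were 70%, 40% and 12.5%, and over all probe sets 41%, 39% and 24%. PRPF39, a partner of the U1 snRNP, had intensities of 703 to 1185 at 94 dpc (median 925), 187 to 944 at 1 dpn (median 522), 202 to 635 at 28 dpn (median 321), and 259.9 to 633 at 188 dpn (median 437). It fell by 0.86 in period I (adjusted p = 1.11e-05) and by 0.60 in period II (adjusted p = 0.00349, 0.128 after median centring and 0.642 with the actin covariate), and rose by 0.36 in period III (adjusted p = 0.0334, 0.0678 without the filter). PRPF31, needed to join the U4/U6 and U5 snRNPs, rose by 0.40 in period I (adjusted p = 0.000574), with 356 to 486 at 94 dpc (median 414), 358 to 819.7 at 1 dpn (median 586), 463 to 843 at 28 dpn (median 537), and 384 to 737 at 188 dpn (median 537). Its period II difference of -0.01 ± 0.11 (adjusted p = 0.918) turned into a called rise of 0.30 after median centring (adjusted p = 0.0262). PRPF19, the ubiquitin ligase of the spliceosome's activating complex, and PRPF38A were among the 5 smallest spans, at 1.19 and 1.20-fold. Their falls at birth of 0.25 and 0.23 (adjusted p = 0.0101 and 0.0148) were both lost after median centring (adjusted p = 0.473 and 0.582), under which both genes had a called rise of 0.44 and 0.43 in period II (adjusted p = 0.000177 and 0.00034).

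The DDX helicases fell chiefly in period II. In period I 5 of 23 probe sets rose and 4 fell (median change -0.07, and 0.10 after median centring), in period II 1 of 22 rose and 16 fell (median change -0.86), and in period III 1 of 19 rose and 5 fell (median change 0.05). Falls made up 17.4%, 72.7% and 26.3% in the 3 periods, so in period III the share was close to the 24% of all probe sets, while all gave 41% and 39% in periods I and II. DDX39B (UAP56), which loads the U2 snRNP and hands finished mRNA to the export machinery, had the largest span of stage means among the genes taken with 1 probe set each, 8.96-fold. Its intensities were 1313 to 2316 at 94 dpc (median 1765), 2282 to 3634 at 1 dpn (median 2843), 285 to 499 at 28 dpn (median 347), and 174 to 378 at 188 dpn (median 308). It rose by 0.65 in period I (adjusted p = 1.51e-08) and then fell 7.32-fold in period II (-2.87 ± 0.09, adjusted p = 3.55e-22), where even the lowest newborn was far above the highest pig of 28 dpn. A fall of 0.29 in period III (adjusted p = 0.0152) was lost under quantile normalization (adjusted p = 0.137), median centring (0.0729) and the actin covariate (0.0603). The second DDX39B probe set fell by 1.71 in period II (adjusted p = 0.00139), with an SD between animals of 1.56 at 1 dpn and 0.94 at 28 dpn, and gave -0.45 in period I (adjusted p = 0.407).

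DDX39A, its close paralog, took another course on its brighter probe set. It had intensities of 776 to 1354 at 94 dpc (median 1013), 705 to 1677 at 1 dpn (median 1098), 500.1 to 1118 at 28 dpn (median 667), and 239 to 456 at 188 dpn (median 363). It differed by 0.02 ± 0.13 in period I (adjusted p = 0.879), fell by 0.58 in period II (adjusted p = 0.00044, 0.0911 after median centring and 0.134 with the actin covariate), and fell by 0.88 in period III without overlap (adjusted p = 7.23e-08). The second DDX39A probe set had stage means of 8.16, 8.26, 6.50 and 5.26 from 94 dpc to 188 dpn, an 8.01-fold span. Like DDX39B, it was far lower at 28 dpn than at 1 dpn. Its mean at 188 dpn lay below the highest Tag control (5.84). DDX46, the human counterpart of yeast Prp5 in forming the prespliceosome, fell by 0.92 in period I (adjusted p = 3.57e-05), while a second probe set gave 0.28 there (adjusted p = 0.255) and fell by 1.50 in period II (adjusted p = 1.41e-08).

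Several DDX enzymes are known from ribosome production and mRNA storage. DDX21, a nucleolar helicase of ribosomal RNA synthesis, had intensities of 1020.4 to 1877 at 94 dpc (median 1469), 397 to 1142 at 1 dpn (median 748), 229 to 729 at 28 dpn (median 370.1), and 278 to 518 at 188 dpn (median 387). It fell by 0.97 in period I (adjusted p = 2.32e-07) and by 0.94 in period II (adjusted p = 1.98e-05, 0.256 with the actin covariate). Its paralog DDX50 fell by 1.35 in period II (adjusted p = 5.13e-07, 0.174 with the actin covariate). DDX27, which acts in ribosomal RNA processing, read 200.2 to 461 at 94 dpc (median 336), 261 to 438 at 1 dpn (median 331), 87.1 to 212 at 28 dpn (median 136), and 121 to 224 at 188 dpn (median 138). It fell 2.24-fold in period II without overlap (adjusted p = 9.16e-11). DDX6, which represses translation and promotes decapping in P bodies, had 490.3 to 1473 at 94 dpc (median 1155), 762 to 1613 at 1 dpn (median 1017), 218 to 573 at 28 dpn (median 403), and 190.1 to 585 at 188 dpn (median 405). It fell 2.65-fold in period II, again without overlap (adjusted p = 2.65e-11), and its period I difference was -0.06 ± 0.13 (adjusted p = 0.724). DDX49 rose by 0.61 in period I and fell by 0.92 in period II without overlap (adjusted p = 3.39e-07 and 1.1e-08), although its second probe set differed by -0.01 ± 0.16 in period II (adjusted p = 0.945). DDX51 was the single DDX probe set that rose in period II, by 0.48 (adjusted p = 0.00159, 0.972 with the actin covariate).

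DDX58 (RIG-I) is a sensor of viral RNA and not a splicing factor, and it was brought in by its symbol. Its intensities were 59.1 to 302 at 94 dpc (median 137), 108 to 462 at 1 dpn (median 219.7), 68.1 to 842 at 28 dpn (median 227), and 27.2 to 398 at 188 dpn (median 153). It rose by 0.69 in period I (adjusted p = 0.00249, 0.0957 with the actin covariate) and fell by 0.78 in period III (adjusted p = 0.0338), a call that was lost without the filter (adjusted p = 0.0647), without the lowest-correlation array of each stage (0.0561), after median centring (0.0501) and with the actin covariate (0.139). The SD between animals of 0.91 at 28 dpn and 0.80 at 188 dpn was among the 4 highest of the tested members at those stages. DDX11, a DNA helicase that shares the name, showed no called change and a span of 1.20-fold.

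Among the DHX helicases 0 of 4 probe sets rose and 2 fell in period I (0 and 0 after median centring), 0 of 4 rose and 3 fell in period II, and 1 of 3 rose and 0 fell in period III. With so few probe sets, shares of 50%, 75% and 0% stand against 41%, 39% and 24% of all. DHX9 (RNA helicase A), which unwinds double-stranded RNA, had intensities of 587 to 1069 at 94 dpc (median 838), 348 to 1099 at 1 dpn (median 744), 41.7 to 139 at 28 dpn (median 76.9), and 52.5 to 243 at 188 dpn (median 96.7). The 28 dpn and newborn ranges were far apart, and the change in period II of -2.79 ± 0.17 was a 6.91-fold fall (adjusted p = 1.3e-14). At 28 dpn its mean of 6.56 ± 0.46 was not far above the background level of 5.73, and it did not pass the filter in period III. The small fall of 0.33 in period I (adjusted p = 0.0388) was lost under 5 of the alternatives, with adjusted p between 0.0689 and 0.447. DHX15, which takes the spent spliceosome apart, had intensities of 2256 to 4198 at 94 dpc (median 3409.6), 1872 to 3775 at 1 dpn (median 2710.3), 852 to 1857 at 28 dpn (median 1004), and 510.3 to 1342 at 188 dpn (median 979). It fell 2.32-fold in period II with no overlap (adjusted p = 6.45e-10) and by 0.29 in period I (adjusted p = 0.0074, 0.28 after median centring and 0.118 with the actin covariate). DHX29, a helicase of translation initiation, fell by 0.65 in period II and rose by 0.45 in period III (adjusted p = 0.0169 and 0.0276), and both calls were lost without the lowest-correlation arrays (adjusted p = 0.0589 and 0.0505). The fall was also lost under quantile normalization (adjusted p = 0.2), median centring (0.212) and with the actin covariate (0.443). The rise was also lost without the filter (adjusted p = 0.0559) and in 1 fit over 60 arrays (0.0608). DHX30, linked to mitochondrial ribosomes, had on its brightest probe set the smallest span of all tested, 1.14-fold, and no called change, although after median centring it rose by 0.47 in period II (adjusted p = 6.23e-05). Its dimmer probe sets, left out by the filter, had means of 7.09 and 6.19 at 1 dpn and 6.07 and 5.46 at 28 dpn, with spans of 2.02-fold and 1.78-fold.

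Genes with several probe sets give a second reading of the same gene, since probe sets can lie on different transcript isoforms or at different distances from the 3' end. Of 27 such genes, 22 had at least 2 tested probe sets in period I, where all fell for 7, all rose for 2, none was called for 3, some but not all were called in 1 direction for 8, and calls went in opposite directions for 2. In period II the 21 genes gave 11, 0, 2, 6 and 2 in the same order, and in period III the 17 genes gave 5, 0, 6, 4 and 2. The genes with opposite calls were HNRNPA2B1 and HNRNPUL1 in period I, HNRNPUL1 and SRSF6 in period II, and SNRPG and SRSF6 in period III.

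HNRNPUL1, a nuclear RNA-binding protein of the hnRNP U subfamily, gave the widest disagreement. Its brighter probe set had intensities of 1285 to 1914 at 94 dpc (median 1471), 736 to 1202 at 1 dpn (median 959.6), 1414 to 1799.7 at 28 dpn (median 1625), and 1144 to 1606 at 188 dpn (median 1366). It fell by 0.61 in period I (adjusted p = 5.89e-09), rose by 0.75 in period II (adjusted p = 8.53e-11) and fell by 0.24 in period III (adjusted p = 0.00213), with no overlap in the first and the second of these. The other probe set had intensities of 66.2 to 199.6 at 94 dpc (median 136), 125 to 361 at 1 dpn (median 219), 2.14 to 50.3 at 28 dpn (median 6.96), and 2.27 to 62.9 at 188 dpn (median 7.62). It rose by 0.61 in period I (adjusted p = 0.000578) and fell by 2.99 in period II (adjusted p = 5.03e-15). The mean of 4.79 at 28 dpn lay below the highest Tag control, so background sets that level and with it the size of the fall.

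SRSF6, an SR protein that promotes exon inclusion, had 6 probe sets, all of which fell in period I by between 0.47 and 1.39. In period II 3 of them fell (-0.75, -0.62 and -0.35), 1 rose by 0.42 (adjusted p = 0.000535) and the differences of the other 2 were -0.12 and -0.16 (adjusted p = 0.338 and 0.282). The rise and the 3 falls were not called with the actin covariate. After median centring 2 of the 3 falls were lost as well (adjusted p = 0.106 and 0.807). In period III the brightest fell by 0.43 (adjusted p = 0.0247), a call lost after median centring (adjusted p = 0.0591), without the filter (0.0512) and with the actin covariate (0.29). Another rose by 0.41 (adjusted p = 0.0178, 0.052 with the actin covariate). HNRNPA2B1, whose protein recognises methylated adenosine marks and sorts RNA, had in period I a rise of 0.34 (adjusted p = 0.0265), a fall of 0.26 (adjusted p = 0.0378) and, for its brightest probe set, a difference of 0.05 ± 0.11 (adjusted p = 0.725). The rise was lost with the actin covariate (adjusted p = 0.177), and the fall under quantile normalization (adjusted p = 0.439), median centring (0.496), no filter (0.0695) and the actin covariate (0.182). The brightest fell by 0.56 in period II (adjusted p = 0.000231, 0.0874 after median centring and 0.34 with the actin covariate) and by 0.40 in period III (adjusted p = 0.00219). SNRPG, another Sm core protein, rose in period I on both probe sets, by 0.35 and 0.36 (adjusted p = 0.0016 and 0.0381), the rise of 0.36 being lost without the filter (adjusted p = 0.0672). In period II the brighter fell by 0.26 (adjusted p = 0.0265), which turned to 0.05 after median centring (adjusted p = 0.69) and was lost with the actin covariate (0.0682). In period III the brighter fell by 0.31 (adjusted p = 0.00305) and the dimmer rose by 0.27 (adjusted p = 0.0494), and this rise was lost under 4 alternatives with adjusted p between 0.0549 and 0.265.

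**Figure D4:**
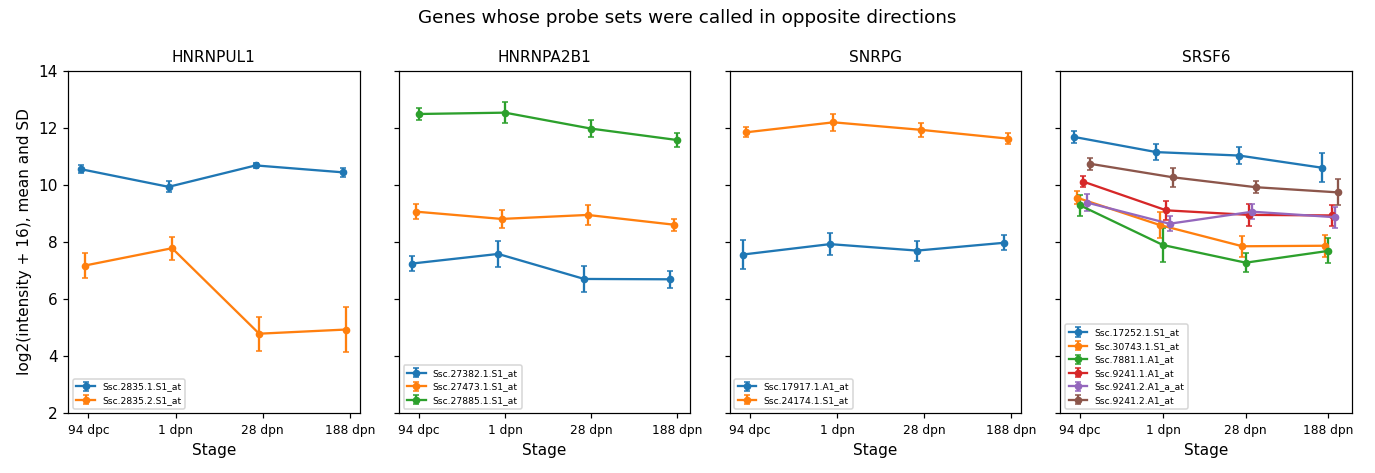
Stage means with SD of every probe set (1 line each, log2(intensity + 16)) of the 4 genes whose probe sets were called in opposite directions, with stages from 94 dpc on the left to 188 dpn on the right. For HNRNPUL1 the upper line rises by 0.75 between 1 and 28 dpn while the lower falls to 4.79, and the 6 lines of SRSF6 all fall between 94 dpc and 1 dpn.

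Genes of the splicing machinery outside these name groups were taken from a separate list of 70 genes, 1 probe set each. In period I 12 of 66 rose and 29 fell with a median change of -0.13 (22, 20 and 0.04 after median centring), close to the 41% of falls and the median of -0.15 over all probe sets. In period II 11 of 65 rose and 31 fell (median change -0.21, and 23 rose and 14 fell after median centring, with a median of 0.11), and in period III 4 of 64 rose and 27 fell (median change -0.18). The falls amounted to 43.9%, 47.7% and 42.2%, and those of all probe sets to 41%, 39% and 24%. SF1, which binds the branch point before the U2 snRNP does, fell by 1.64 in period II (adjusted p = 4.86e-09). XAB2 rose by 0.94 in period I and fell by 1.27 in period II (adjusted p = 1.9e-05 and 9.28e-08). Its means of 6.41 at 94 dpc and 6.07 at 28 dpn were not far above the background levels of 5.86 and 5.73. It did not pass the filter in period III. ELAVL1 (HuR), a stabiliser of AU-rich mRNA, rose by 1.45 in period II (adjusted p = 1.08e-16), and PCBP2, a poly(C)-binding protein, by 1.20 (adjusted p = 2.17e-10). The splicing activators TRA2A and TRA2B fell by 0.92 and 0.91 in period I (adjusted p = 1.97e-07 and 3.17e-06).

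Other parts of the RNA and protein synthesis machinery were set beside them in the same animals. Cytosolic ribosomal proteins fell at birth in 70 of 79 probe sets and rose in 2 (median -0.62), fell in 39 of 78 and rose in 9 in period II (median -0.18, but 0.14 with 33 rises and 13 falls after median centring), and rose in 53 of 79 and fell in 5 in period III (median 0.26, but 0.02 with 9 rises and 6 falls after quantile normalization). Translation factors rose in 9 of 49 and fell in 23 in period I, rose in 5 of 49 and fell in 27 in period II (median -0.25, but 0.06 after median centring), and rose in 13 of 50 and fell in 7 in period III (median 0.03). The difference of these lists from the splicing factors and helicases was not tested, since genes are not replicates.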

How the data were processed

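Total liver RNA of each animal was labelled from the 3' end and hybridised to a GeneChip Porcine Genome Array. The authors deposited 1 linear intensity per probe set and array, scaled so that the mean after trimming 2% at each end was close to 500. GCOS 1.1.1 is named in the notes of the submitters. These are not the GCRMA values that the study tested. After adding 16 the log2 was taken, and 124 control probe sets were left out of the tests. A probe set was tested if, in 1 or more of the stages compared, 50% or more of the animals had it above their array's median. Periods were fitted with limma 3.58.1 in R 4.3.3 on the animals of both stages, and the 4 stages with its F test over 60 arrays, each adjusted over all probe sets tested, two-sided. The method was tested on simulated data.

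Symbols came from the platform annotation, which lists 1 gene for 10069 probe sets, more than 1 for 198 and no gene for 13732. All 122 members matched RefSeq by gene ID (Sscrofa11.1, names only) and 0 symbols differed. No sequence or coordinate was used. A gene is given by its probe set with the highest mean over the arrays unless another is named. Named were the 8 largest called rises and falls per period, the 10 largest and 5 smallest spans, a fixed set of core factors, and genes with opposite calls, 53 in all. Members and lists were chosen with earlier results of these data known. Alternatives were quantile normalization, median centring, 1 and 64 as the added constant, no filter, a filter met by all animals of a stage, leaving out the lowest-correlation array of each stage, 1 fit over 60 arrays, the actin ratio as a covariate, and 1 probe set per gene. The number of arrays limits the precision.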

Additional observations from a re-analysis of the deposited data

How the results depend on the processing

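Of 1600 alternative values for 180 changes of named genes, 1489 stayed on the same side of the threshold and 80 lost the call. A call was gained by 26, and 5 turned round with a call before or after. Among the 1489 were 60 that changed sign with no call before or after. The 5 turned after median centring in period II, which moved the median of all probe sets to 0.22 in place of -0.10: SF3A3 0.16 (-0.16 before), HNRNPK 0.20 (-0.11), HNRNPD 0.20 (-0.11), PRPF31 0.30 (-0.01) and SNRPG 0.052 (-0.26). Calls were lost most often with the actin ratio as covariate (35), median centring (17), quantile normalization (10) and no filter (10). Of 193 alternative values of counts and medians 163 stayed within 1.5 times the reported count or 1 SD between animals of the reported median. Median centring gave 22 rises in period II (11 reported) and median changes of -0.033 in period I (-0.20) and -0.27 in period II (-0.58), and, among the other splicing machinery genes, 22 rises in period I (12) and 23 rises (11) and 14 falls (31) in period II. It left 22 members highest at 94 dpc (48), 3 at 28 dpn (0) and 4 at 188 dpn (2), and 5 lowest at 94 dpc (1), 3 at 1 dpn (1) and 21 at 188 dpn (42). The actin covariate gave 3 rises and 27 falls in period II (11 and 64). With 1 probe set per gene, which tests fewer features, 30 fell in period I (46), 4 rose in period III (7), 31, 5 and 1 were highest at 94 dpc, 1 dpn and 188 dpn (48, 10 and 2), and 0, 9 and 27 were lowest at 94 dpc, 28 dpn and 188 dpn (1, 16 and 42). Rises in period III numbered 4 without the filter and 4 in 1 fit over 60 arrays (7), and without the filter 2 members were lowest at 94 dpc (1) and 2 other splicing genes rose in period III (4). Quantile normalization made 1 highest at 28 dpn (0) and 2 lowest at 94 dpc (1), and a constant of 64 made 1 highest at 188 dpn (2) and 0 lowest at 94 dpc (1). The cause of these shifts was not tested. No paired analysis was possible because the labels number the animals through all stages and share no replicate number between them. Low signal limits the probe sets near the Tag controls.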
